A study of Mus musculus with 2 samples.

Results

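The adipocyte genes are 10 genes that fat cells are known by, chosen by name among 21938 that GENCODE M21 annotates as protein-coding on the mouse build GRCm38. Pparg, Cebpa, Cebpb and Zfp423 form the regulators, and Fabp4, Adipoq, Lep, Plin1, Lpl and Cd36 form the end-stage genes. Each was read with 25 kb of flank on both sides. The regulators lie as follows: Pparg at chr6:115360951-115490399 (plus strand), Cebpa at chr7:35119293-35121928 (plus strand), Cebpb at chr2:167688915-167690418 (plus strand) and Zfp423 at chr8:87661810-87959595 (minus strand). The end-stage genes lie as follows: Fabp4 at chr3:10204088-10208576 (minus strand), Adipoq at chr16:23146536-23158028 (plus strand), Lep at chr6:29060220-29073877 (plus strand), Plin1 at chr7:79720218-79732903 (minus strand), Lpl at chr8:68880491-68907448 (plus strand) and Cd36 at chr5:17781690-17888801 (minus strand). DNA methylation was measured by whole-genome bisulfite sequencing in primary osteoblasts from 3-day-old C57BL/6 mice, with 1 library of wild type (WT) cells and 1 library of TCKO cells. The TCKO mice carried Prx1-Cre with Tet1 fl/fl, Tet2 fl/fl and Tet3 fl/fl, so that Cre, which Prx1 drives in limb and calvarial mesenchyme, removed the Tet genes there. The cells came from calvarial bone and had been cultured for 3 days, and cells in such a culture that never expressed Cre would keep their Tet genes.

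TET enzymes oxidise 5-methylcytosine, the first step in taking methyl groups off CG sites. Osteoblasts and adipocytes arise from common mesenchymal progenitors. C/EBPβ and the zinc finger protein ZFP423 act early in adipocyte commitment, PPARγ and C/EBPα then drive each other and the fat cell programme, and the end-stage genes encode what a fat cell uses and secretes. Osteoblasts do not run this programme as a whole, though single genes of it, such as Cebpb, are used outside fat. RNA was not analysed here.

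The WT library held 261062118 calls at CG cytosines, of which 70.2% were methylated, and the TCKO library held 223581206 calls, of which 76.3% were methylated. These calls gave means of 5.97 and 5.11 per CG cytosine of the reference. A level below is the share of calls that were methylated in a window, and a difference is TCKO minus WT in percentage points. Bisulfite does not separate 5-methylcytosine from 5-hydroxymethylcytosine, the first TET product, so both count as methylated. There was no second library of either genotype: 2-sided Fisher's exact tests compare these 2 libraries and not the genotypes, and 95% intervals cover counting error only. A level is an average over cells and alleles, so fewer cells with a methylated site and partial methylation in every cell cannot be told apart. Of the osteoblast markers, 7 of 8 were higher in TCKO at the transcription start site (TSS), with WT levels of 0.613% to 69.4% and TCKO levels of 2.76% to 84.6%, beside 71.7% of all genes tested that were higher there. Of the markers of other cell types that calvarial cultures can hold, those higher in TCKO were 5 of 5 myeloid and osteoclast markers at the TSS (WT 61.9% to 78.4%, TCKO 74.7% to 84.0%), 4 of 4 endothelial markers (WT 11.7% to 78.5%, TCKO 15.2% to 88.1%), 2 of 3 muscle markers (WT 31.6% to 65.2%, TCKO 24.6% to 72.9%) and 2 of 3 chondrocyte markers (WT 0% to 9.12%, TCKO 0% to 9.70%). Whether cell mixture had a part in the differences below was not tested.

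The starts of these genes were of contrasting kinds, and the 200 bases before the TSS show it for 2 regulators and 1 end-stage gene. They are printed 5′ to 3′ on the strand of the gene in GRCm38, with every CG in capitals:
Cebpb (chr2:167688715-167688914, plus strand): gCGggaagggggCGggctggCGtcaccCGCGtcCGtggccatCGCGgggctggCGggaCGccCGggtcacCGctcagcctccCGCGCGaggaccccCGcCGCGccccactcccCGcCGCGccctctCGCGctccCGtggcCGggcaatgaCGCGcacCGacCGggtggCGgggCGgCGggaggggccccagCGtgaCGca
Zfp423 (chr8:87959596-87959795, minus strand): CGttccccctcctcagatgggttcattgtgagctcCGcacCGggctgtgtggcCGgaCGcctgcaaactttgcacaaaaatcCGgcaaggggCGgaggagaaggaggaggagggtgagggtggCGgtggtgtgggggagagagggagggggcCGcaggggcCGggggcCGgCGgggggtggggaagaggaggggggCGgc
Adipoq (chr16:23146336-23146535, plus strand): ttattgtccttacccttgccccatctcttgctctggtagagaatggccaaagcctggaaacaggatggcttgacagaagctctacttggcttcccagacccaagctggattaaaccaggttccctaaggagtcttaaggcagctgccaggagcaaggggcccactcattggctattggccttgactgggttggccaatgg
The Cebpb stretch holds 34 CG sites and the Zfp423 stretch 13, whereas the Adipoq stretch holds 0. Of the other members counted, Pparg had 20 CG sites in these 200 bases, Cebpa 15, Lep 12, Lpl 5, Cd36 4 and Plin1 0. By CG density over a wider promoter window, the 4 regulators were of the high class, Lep and Lpl of the intermediate class and Fabp4, Adipoq, Plin1 and Cd36 of the low class. In the 200 bases before the 4 regulator starts, 0 of 140 WT calls and 0 of 148 TCKO calls were methylated, which allows levels of up to 2.14% and 2.03%. Only 2 of the TCKO calls were at Zfp423. At Lep, 18 of 25 WT calls and 10 of 14 TCKO calls were methylated there. At Lpl the counts were 4 of 56 and 0 of 52, and at Cd36 17 of 41 and 17 of 27.

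Away from the starts, 6 bins of 200 bp with gains in TCKO are shown. Each was picked by its value, as the bin with the largest difference in its locus. They are on the plus strand of GRCm38, with every CG in capitals:
Cebpa, 8.0 kb downstream of the TSS (chr7:35127201-35127400): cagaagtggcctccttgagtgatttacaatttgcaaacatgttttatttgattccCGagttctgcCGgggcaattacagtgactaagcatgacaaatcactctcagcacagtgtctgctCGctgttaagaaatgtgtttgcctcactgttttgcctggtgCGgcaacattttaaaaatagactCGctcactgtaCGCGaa
Cebpb, 24.8 kb downstream (chr2:167713601-167713800): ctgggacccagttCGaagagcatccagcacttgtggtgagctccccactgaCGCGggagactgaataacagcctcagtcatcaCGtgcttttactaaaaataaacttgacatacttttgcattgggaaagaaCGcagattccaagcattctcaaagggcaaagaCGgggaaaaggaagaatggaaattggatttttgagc
Zfp423, 108 kb downstream in an intron (chr8:87851401-87851600): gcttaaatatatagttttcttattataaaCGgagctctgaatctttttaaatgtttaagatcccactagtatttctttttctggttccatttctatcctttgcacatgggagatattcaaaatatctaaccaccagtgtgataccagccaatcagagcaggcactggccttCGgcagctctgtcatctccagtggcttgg
Adipoq, 20.8 kb downstream (chr16:23167201-23167400): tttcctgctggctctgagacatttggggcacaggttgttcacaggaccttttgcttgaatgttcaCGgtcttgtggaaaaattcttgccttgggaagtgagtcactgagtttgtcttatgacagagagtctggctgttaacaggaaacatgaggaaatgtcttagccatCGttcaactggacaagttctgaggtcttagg
Plin1, 14.6 kb upstream (chr7:79747401-79747600): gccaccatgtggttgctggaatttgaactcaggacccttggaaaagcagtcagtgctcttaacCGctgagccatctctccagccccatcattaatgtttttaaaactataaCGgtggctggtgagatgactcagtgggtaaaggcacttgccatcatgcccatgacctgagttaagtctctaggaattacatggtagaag
Cd36, 129 kb downstream (chr5:17759601-17759800): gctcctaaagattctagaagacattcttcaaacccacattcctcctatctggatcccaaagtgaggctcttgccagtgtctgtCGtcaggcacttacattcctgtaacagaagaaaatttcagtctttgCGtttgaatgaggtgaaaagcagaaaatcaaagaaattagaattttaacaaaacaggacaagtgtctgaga
The Cebpa stretch holds 7 CG sites and the Cebpb stretch 6, and the others hold 2 each. Of the motifs searched below on either strand, the Adipoq and Plin1 stretches both contain TGANTCA, the site read by AP-1 proteins, and CANNTG, the E-box. The Plin1 stretch also contains AACCACA, the Runt site, and AGGTCA, a nuclear receptor element. The Cd36 stretch contains the E-box and CATTCC, the TEAD site. The Cebpb and Zfp423 stretches contain the E-box only, and the Cebpa stretch none of the motifs.

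At the TSS, taken as the 2 kb centred on the 5′ end of the gene, Cebpa, Cebpb and Zfp423 were little methylated in both libraries, and Pparg was partly methylated in both. Cebpa, the gene of a transcription factor that maintains the fat cell state, had 2 methylated among 249 WT calls (0.803%, interval 0.221% to 2.88%) and 0 among 162 TCKO calls, which allows up to 1.85%. Zfp423, the gene of a commitment factor, was methylated in 0 of 228 WT calls and 0 of 69 TCKO calls, which allow up to 1.32% and 4.35%. All TCKO calls of Cebpa lay upstream of its TSS, 89 of them within 500 bp and 73 beyond. In the 1 kb downstream TCKO had no call, so its level there is unknown. Where calls reached, both starts were close to free of methylation in both libraries.

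Cebpb, which encodes an early factor that switches on the others, stood at 6.86% with 204 WT calls (interval 4.13% to 11.2%) and at 8.57% with 245 TCKO calls (5.67% to 12.7%). The difference of 1.71 points had an interval of -3.50 to 6.70. Pparg, which encodes the nuclear receptor at the centre of the programme, stood at 27.0% with 460 WT calls (23.1% to 31.2%) and at 33.7% with 350 TCKO calls (29.0% to 38.8%). The pooled Pparg difference of 6.76 points (interval 0.393 to 13.2) was the highest among the 10 starts, with an adjusted p of 0.129 by Fisher's exact test. In 500 bp parts of this window, from upstream to downstream, the differences were 5.32, -15.4, -0.704 and 0.169 points, so none reached the pooled value. The 2 parts downstream of the TSS, near 0% in both libraries, held 142 and 146 WT calls but 87 and 65 TCKO calls. The pooled difference thus depended on where the calls lay, and as a mean of the levels of covered cytosines it was 2.58 points. With the 2 kb upstream of the TSS as the window, Pparg was lower in TCKO by -13.1 points, with an adjusted p of 0.0190 by Fisher's exact test, so its direction depended on the window. These p-values were adjusted by the Benjamini-Hochberg method over the protein-coding genes with at least 20 calls in the window in each library. For the 2 kb centred on the TSS these were 21693 genes, and the upstream window was adjusted over its own set.

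The end-stage genes were methylated at the TSS in both libraries, apart from Lpl. Fabp4, which encodes a fatty acid carrier, rested at 79.8% in WT and 83.3% in TCKO, a difference of 3.56 points (interval -3.0 to 10.1). Adipoq, the gene of the hormone adiponectin, rested at 77.7% and 82.4%, a difference of 4.68 points (-4.39 to 13.5). Lep, the gene of leptin, rested at 74.6% and 75.8%, a difference of 1.24 points (-8.90 to 10.9).

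Cd36, which encodes a fatty acid transporter, was at 64.7% in WT and 69.3% in TCKO, a difference of 4.60 points (-5.34 to 14.2). Plin1, which encodes a coat protein of lipid droplets, was at 51.6% and 50.6%, a difference of -1.0 points (-14.3 to 12.3). Lpl, which encodes lipoprotein lipase, was at 16.8% and 17.8%, a difference of 1.06 points (-5.31 to 7.93). Lpl was the least methylated end-stage start and lay below Pparg, so the levels of the regulators and the end-stage genes overlapped in both libraries.

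None of the 10 starts was called, a call being an adjusted p below 0.05 with at least 10 points more in TCKO. Of all protein-coding genes tested, 16.4% were called at the TSS. At an unadjusted p below 0.05 by Fisher's exact test, 1 of 10 members passed, which was Pparg, beside 35.2% of all genes. The median difference was 0.854 points for the 4 regulators and 2.40 points for the 6 end-stage genes, beside 2.98 points over all genes. By CG class, the median over all genes was 2.16 points in the high class, 4.27 in the intermediate and 3.87 in the low. The called shares of these classes were 13.7%, 21.7% and 17.1%.

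Depth was lowest at the CG-rich starts, which sets how firmly the regulator levels can be read. In the 2 kb window of Zfp423, 14 of 422 CG cytosines had a call in both libraries, and the means were 0.540 calls per cytosine in WT and 0.164 in TCKO. For Cebpb it was 37 of 460 cytosines, for Cebpa 78 of 411 and for Pparg 111 of 210. The end-stage starts were better covered, from 22 of 30 cytosines at Plin1 to 24 of 24 at Cd36, with the exceptions of Lep (33 of 74) and Lpl (51 of 146). The plot of levels by gene shows the wide TCKO interval at Zfp423.

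**Figure D1:**
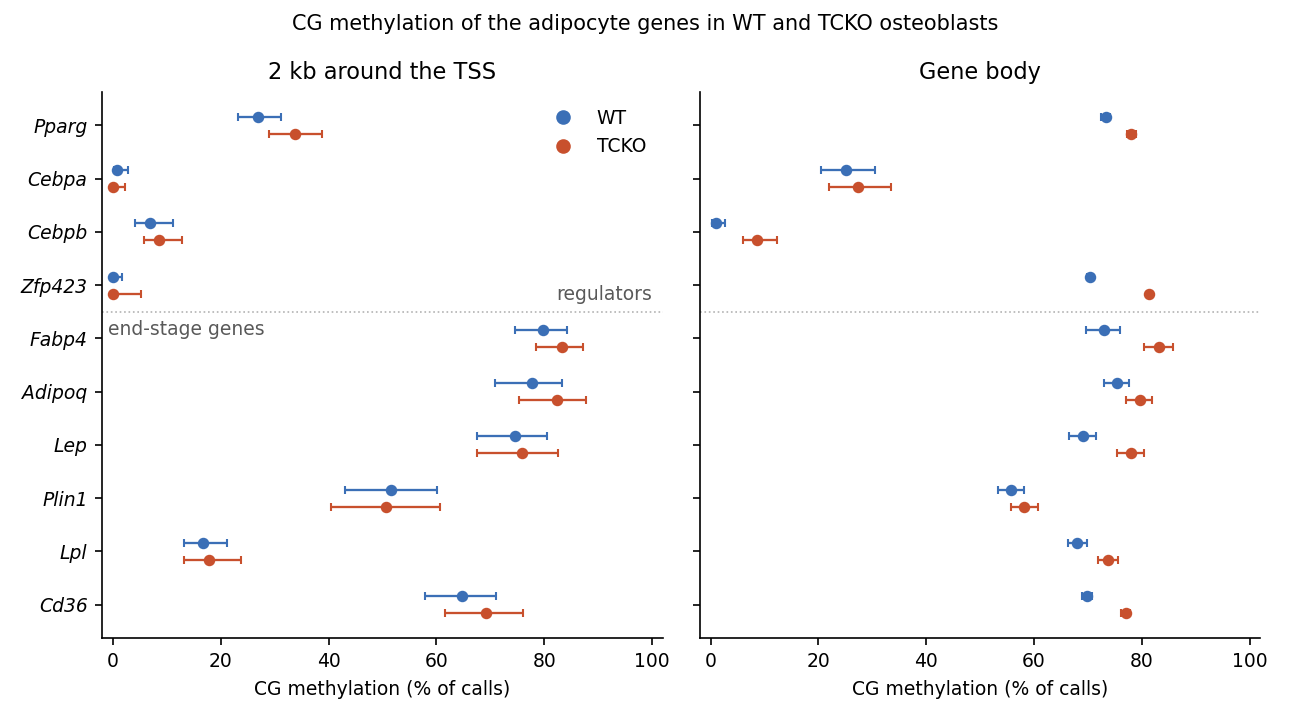
CG methylation of each adipocyte gene in the 2 kb around the TSS (left) and over the gene body (right), as percent of calls on the horizontal axis; points are the pooled level of the WT (blue) and TCKO (red) library and bars are 95% Wilson intervals. The TSS levels of Cebpa, Cebpb and Zfp423 stay under 9% in both libraries. All 10 pooled body levels are higher in TCKO, from 2.18 points at Cebpa to 10.9 points at Zfp423. At Cebpa, TCKO had no call in the 1 kb downstream of the TSS.

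Profiles in 500 bp windows separated the unmethylated cores from their edges. At Lpl, the window from 1500 to 1000 bp upstream of the TSS stood at 52.7% of 93 calls in WT and 93.3% of 89 calls in TCKO, 40.6 points apart (28.4 to 51.3). The neighbouring window, 1000 to 500 bp upstream, stood at 64.6% and 82.5%. The last 500 bp before the start stood at 12.5% in WT and 4.0% in TCKO, a difference of -8.50 points (-16.3 to 0.141). The higher windows at Lpl thus bordered a little methylated core, and the 2 kb window took in parts of both. With 2 kb on each side of the TSS the Lpl difference was 13.7 points and was called.

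At Cebpb the core from 0 to 1000 bp was at 0% in both libraries, and the window from 1000 to 1500 bp downstream stood at 1.40% of 214 WT calls and 13.0% of 216 TCKO calls, or 11.6 points higher (6.90 to 16.8). At Pparg the core from 0 to 500 bp had 0.704% in WT and 0% in TCKO. Its downstream edge, 1000 to 1500 bp, was lower in TCKO, at 39.7% in WT and 18.9% in TCKO (68 and 90 calls), a difference of -20.8 points (-34.5 to -6.59). At Zfp423 the window 3500 to 4000 bp downstream stood at 56.3% and 97.3% (32 and 37 calls), while the windows within 1 kb of the start held no methylated call. At Adipoq, the window 2500 to 2000 bp upstream was at 40% in WT and 64.0% in TCKO (85 and 111 calls). These windows were picked from the profile by their values, so their differences are a description.

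**Figure D2:**
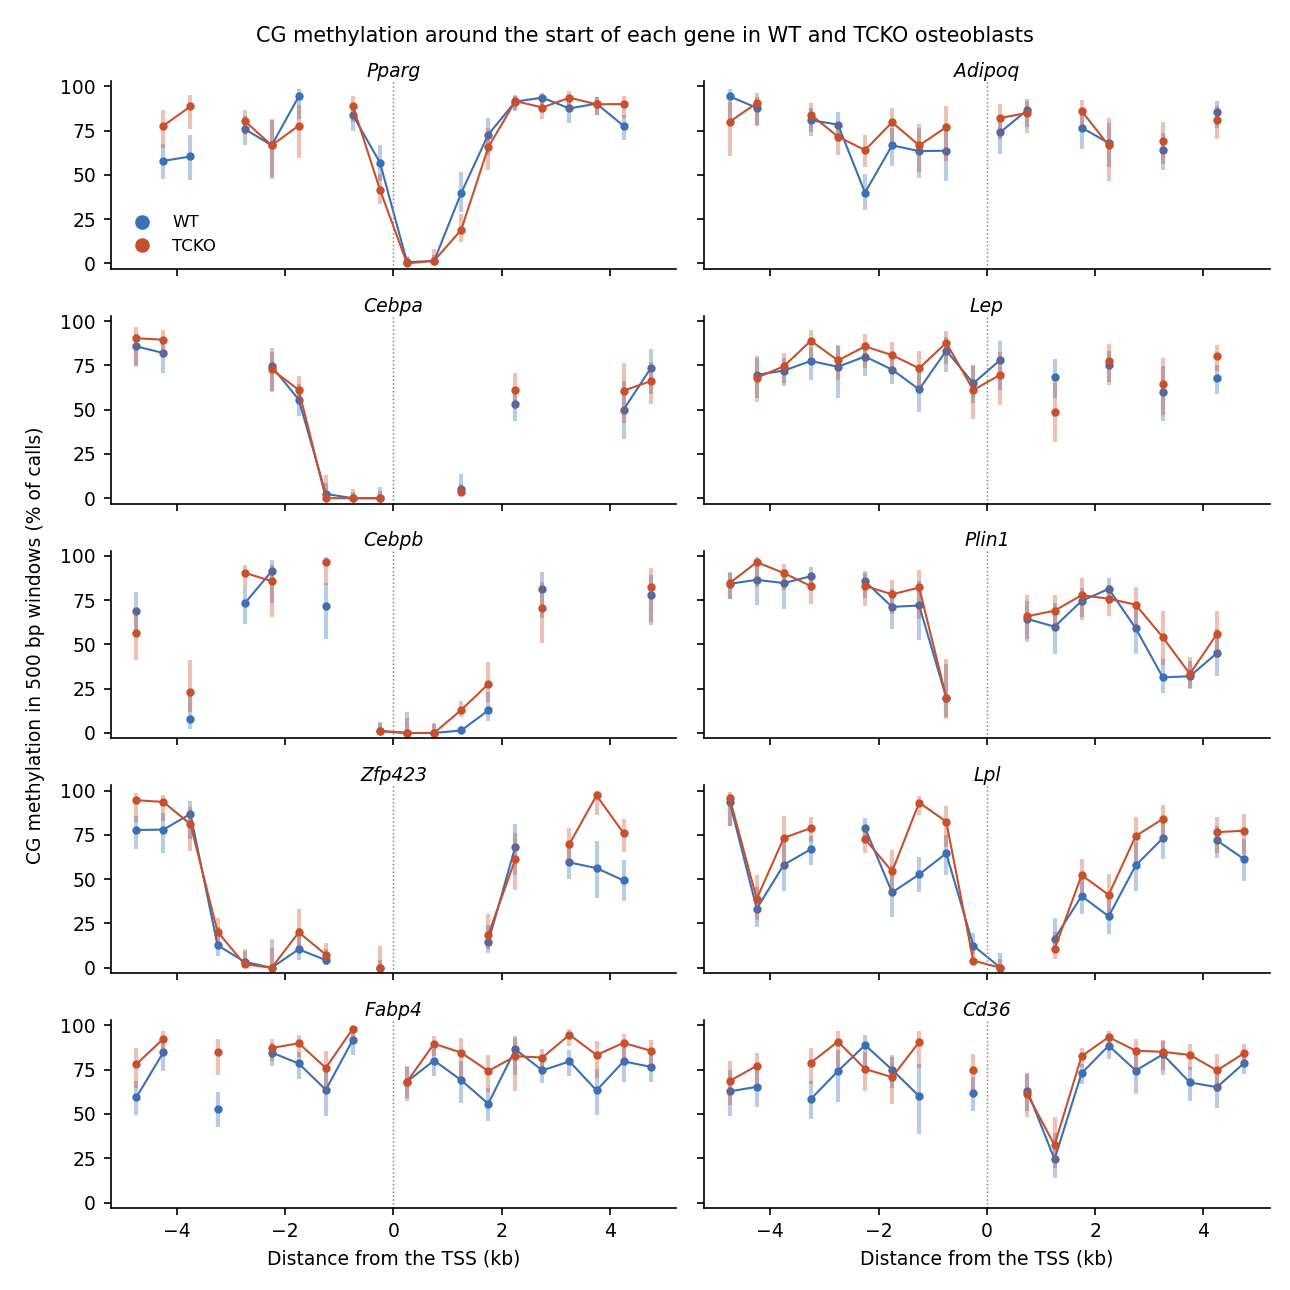
CG methylation in 500 bp windows (percent of calls, vertical axis) by distance from the TSS in kb for each gene in WT (blue) and TCKO (red); bars are 95% Wilson intervals, and windows with under 20 calls in either library are left out. The cores of Pparg, Cebpa, Cebpb, Zfp423 and Lpl lie near 0% in both libraries, that of Cebpa without a TCKO call in the 1 kb downstream. The Lpl window 1500 to 1000 bp upstream separates at 52.7% and 93.3%.

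Over the gene body, from the TSS to the end of the gene, the pooled level of all 10 members was higher in TCKO. At Cebpa coverage was unlike in the 2 libraries. The first 1 kb of its body, little methylated in WT (11 and 78 calls in its 500 bp parts), had no TCKO call. From 1 kb downstream of the TSS the Cebpa difference was -8.40 points. With at least 4 calls per cytosine in both libraries it was 21.8 points, and as a mean of the levels of covered cytosines 9.06 points. Whether coverage had a part in the pooled Cebpa difference was not tested. Zfp423 rose from 70.4% (28128 calls) to 81.4% (23620 calls), a difference of 10.9 points (10.2 to 11.7, adjusted p = 4.94e-183 by Fisher's exact test). Fabp4 rose from 72.9% (797 calls) to 83.2% (744 calls), a difference of 10.3 points (6.18 to 14.4, adjusted p = 2.71e-06 by Fisher's exact test). These were the 2 of 10 members that were called, beside 14.8% of all gene bodies tested. As a mean over the levels of covered cytosines, in which each cytosine counts alike, the Fabp4 difference was 4.04 points and that of Zfp423 10.5 points.

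The other bodies gained less than 10 points. With other body windows, call minimums or strands 1 more member was called each time, 3 in all, which was Cebpb from 1 kb downstream (11.6 points) and with at least 4 calls per cytosine (17 points), Lep on the plus strand (10.5 points) and Cebpa on the minus strand (26.7 points). Lep rose from 69.1% to 78.0% (8.88 points, 5.33 to 12.4), Cebpb from 0.949% to 8.70% (7.75 points, 4.57 to 11.4) and Cd36 from 69.8% to 77.0% (7.23 points, 6.01 to 8.44). Lpl rose from 68.1% to 73.8% (5.70 points), Pparg from 73.3% to 78.1% (4.75 points) and Adipoq from 75.4% to 79.6% (4.26 points). Each of these passed the adjusted p but not the 10 points. As a mean over the levels of covered cytosines, the difference was 1.64 points at Cebpb, 6.18 at Lep and 8.64 at Cd36. It was 10.6 points at Lpl, 6.69 at Pparg and 2.78 at Adipoq. Plin1, at 55.8% and 58.2%, and Cebpa, at 25.2% and 27.4%, did not pass it, with intervals of -1.11 to 5.88 and -5.46 to 9.96 points.

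The median body difference was 6.25 points for the regulators and 6.47 points for the end-stage genes, beside 5.66 points over all 21625 bodies tested, of which 84.2% were higher in TCKO. The medians of the roles thus lay less than 1 point from the median of all genes. The bodies of Cebpa and Cebpb had WT levels of 25.2% and 0.949%, below those of the other 8 members.

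Several members have further starts of protein-coding transcripts more than 1 kb from the gene's own TSS. Of 11 such starts with enough calls, 4 were called, beside 21.2% of 11510 other starts over all genes. The start of Zfp423-203, 155 kb inside the gene, rose from 26.3% (274 calls) to 69.2% (159 calls), a difference of 42.9 points (33.5 to 51.1, adjusted p = 2.29e-16 by Fisher's exact test). The start of Zfp423-201, at 63.9 kb, rose from 49.0% to 72.6%, a difference of 23.6 points (10.4 to 35.8). Both belong to Zfp423, whose first start held no methylated call.

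The other called starts belong to end-stage genes. Cd36-206, at 53.1 kb, rose from 36.7% to 59.3%, a difference of 22.6 points (8.11 to 35.8), and Lep-202, at 5.24 kb, rose from 57.0% to 76.4%, a difference of 19.5 points (11.0 to 27.5). At Pparg, the start of Pparg-201, 61.1 kb inside the gene, stood at 54.3% of 164 WT calls and 63.2% of 144 TCKO calls, or 8.93 points apart (-2.09 to 19.6). The start of Pparg-204, at 1.34 kb, stood at 42.0% and 44.6%. Neither passed the adjusted p, which was 0.274 and 0.696 by Fisher's exact test. Lep-202 is not in the basic set of the annotation, which holds the better supported transcripts.

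Each locus was then read in 200 bp bins, of which those with 4 or more CG cytosines, called 4 times or more on average in both libraries, could be tested. Of the 1044 testable bins in the 10 loci, 750 (71.8%) were higher in TCKO, beside 68.1% of all 2534629 testable bins. A gaining bin had an adjusted p below 0.05 and at least 40 points more in TCKO. There were 46 gaining bins, or 4.41% of those testable (interval 3.32% to 5.83%), beside 2.87% of all testable bins. Intervals of bin shares here and below take bins as independent. Neighbouring bins of a locus need not be, and bins are not replicates, so these intervals are likely too narrow. Losing bins, with as much less, numbered 0 in the 10 loci, beside 0.0355% of all testable bins.

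Zfp423 alone held 21 of the 46 gaining bins, among 241 testable (8.71%). Without its locus, the count was 25 of 803 (3.11%, interval 2.12% to 4.56%), which is near the background. By role, 28 of 500 bins in the regulator loci gained (5.60%, 3.90% to 7.97%) and 18 of 544 in the end-stage loci (3.31%, 2.10% to 5.17%). The 3 regulator loci other than Zfp423 had 7 of 259 (2.70%), so the higher share of the regulators rested on Zfp423. When bins were required to hold a mean of at least 10 calls per cytosine, 2 of 261 bins gained (0.766%), beside 1.91% of all such bins, and 0 of 36 did in the Zfp423 locus. With the bin borders moved by 100 bp, 31 of 986 bins gained (3.14%), beside 2.87%, and 16 of 217 in the Zfp423 locus (7.37%).

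**Figure D3:**
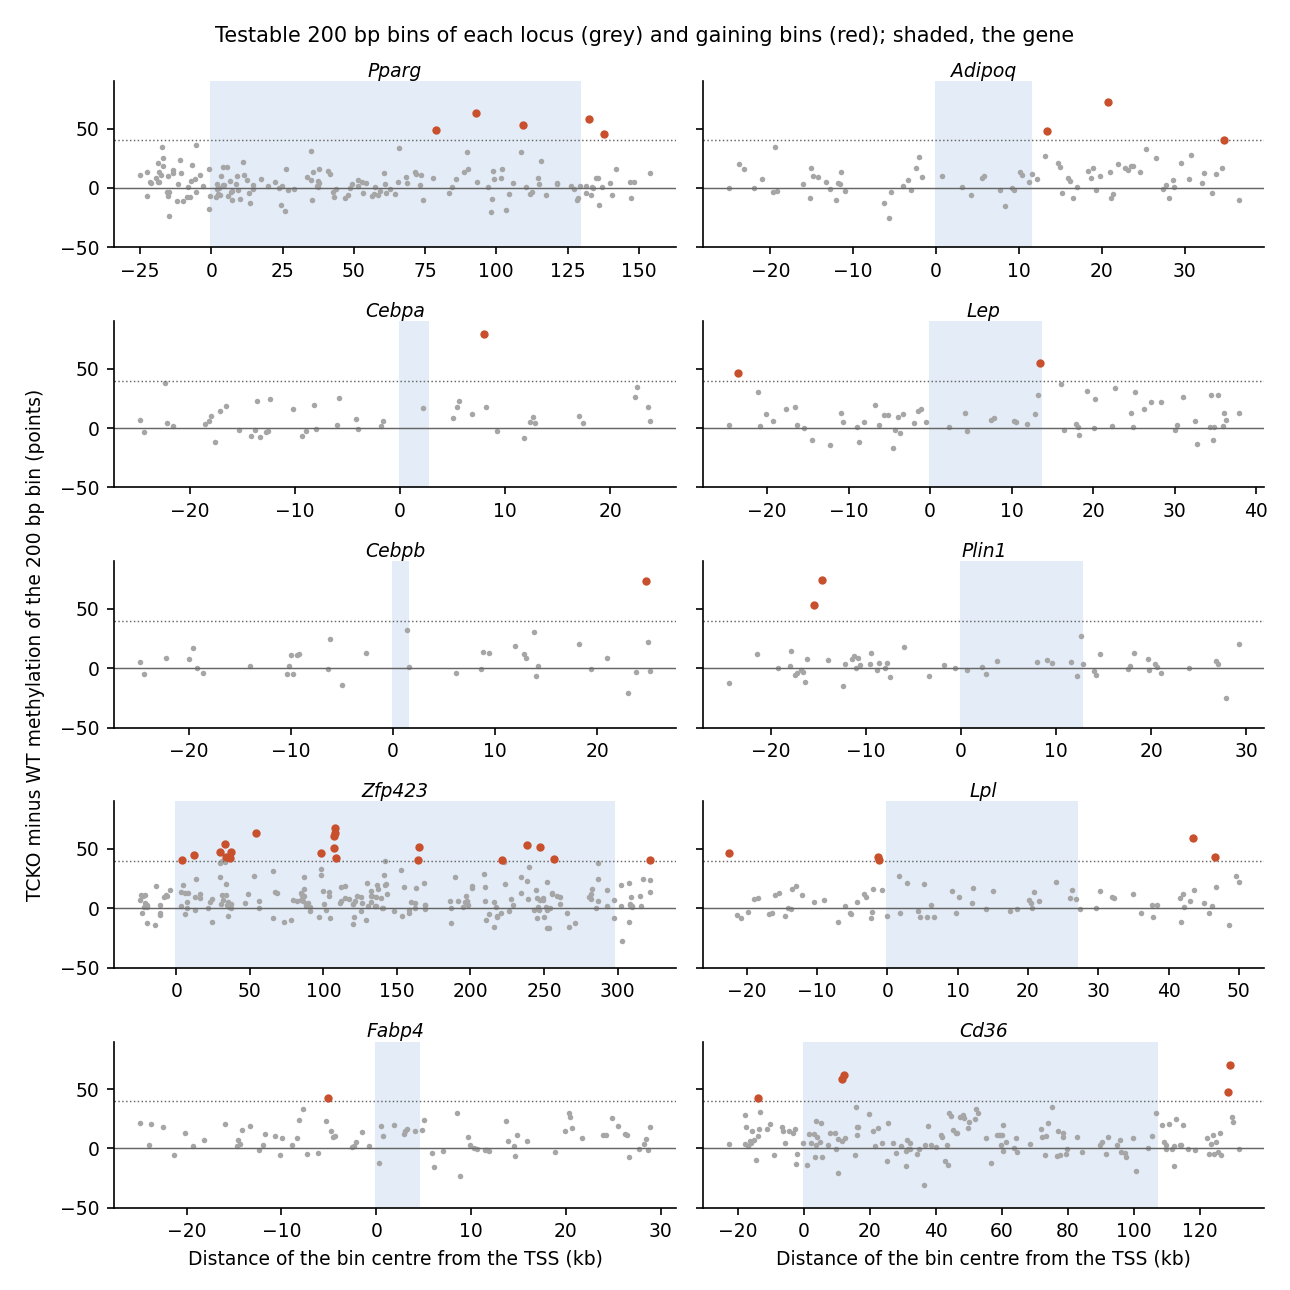
TCKO minus WT methylation (points, vertical axis) of every testable 200 bp bin of each locus by distance from the TSS in kb; gaining bins are red, other testable bins grey, the gene is shaded and the dotted line marks 40 points. None of the 46 gaining bins lies within 1 kb of a TSS, where 15 bins were testable, and 21 of them fall in the Zfp423 locus.

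No gaining bin had its centre within 1 kb of a member TSS, where only 15 bins were testable, 3 of them at regulators, so a count of 0 there says little about the starts. Within 10 kb there were 5. By place, 24 lay in an intron, 2 overlapped an exon, 8 were upstream and 12 downstream of the gene, and 5 overlapped another gene. The nearest to a start were a pair of neighbours at Lpl, centred 1.39 and 1.19 kb upstream. The farther bin of the pair rose from 57.1% (28 calls) to 100% (19 calls) and the nearer from 50.8% (65 calls) to 91.4% (70 calls), a difference of 40.7 points. The pair lies in the window of the Lpl profile that stood 40.6 points apart.

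Among the regulators, the bin 8.0 kb downstream of the Cebpa start, printed above with its 7 CG sites, rose from 10.6% (interval 5.67% to 18.9%, 85 calls) to 89.8% (81.7% to 94.5%, 88 calls). Its difference of 79.2 points (adjusted p = 1.63e-24 by Fisher's exact test over all testable bins) was the highest in the 10 loci. It was the only gaining bin among 48 testable in the Cebpa locus. The bin 24.8 kb downstream of the Cebpb start, which lies in the non-coding gene A530013C23Rik, rose from 7.21% (111 calls) to 80.7% (88 calls), a difference of 73.5 points. It was likewise the only gaining bin among 38 testable in its locus. The TSS levels of both genes stayed below 9%, though Cebpa lacked TCKO calls in the downstream part of that window.

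At Pparg, 5 of 173 testable bins gained, all in the downstream part of the locus between 78.9 and 138 kb from the TSS. The bin at 92.9 kb, in an intron and in Gm44079, rose from 17.1% (35 calls) to 80.0% (30 calls), a difference of 62.9 points. The bin at 133 kb, past the end of the gene, rose from 0% of 26 calls to 58.3% of 24 calls. The start of Pparg-201, at 61.1 kb, lay outside this stretch. With the bin borders moved by 100 bp, 1 of 160 Pparg bins gained.

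At Zfp423, 20 of the 21 gaining bins lay in introns, from 3.89 to 257 kb downstream of the TSS, and 1 lay past the gene end. Gaining bins centred within 400 bp of each other formed 6 runs in the 10 loci, 4 of them here, 1 at Lpl and 1 at Cd36, with 15 bins in all. The longest run, near 108 kb, held 5 gaining bins within 1.4 kb. The highest of them, printed above, rose from 16.7% (36 calls) to 84.2% (38 calls), a difference of 67.5 points. The other 4 stood at 25% to 34.6% in WT and 69.7% to 88.5% in TCKO. A pair at 36.9 and 37.1 kb rose from 18.8% to 61.3% and from 29.6% to 77.1%, and a single bin at 54.5 kb rose from 23.0% to 86.0% (61 and 43 calls).

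Windows of 5 kb used every call of a locus, including those in bins that could not be tested. At Zfp423, 65 of 70 windows were higher in TCKO, with a median difference of 8.32 points. The window from 50 to 55 kb had the highest difference, with 52.4% of 351 WT calls and 82.3% of 305 TCKO calls, or 29.9 points. The first 5 kb of the gene stood at 35.9% of 507 calls and 60.1% of 353 calls, although the 1 kb at its head held no methylated call. That head lies in the 2 kb around the TSS, where WT had 228 calls and TCKO 69. How much of the gap in this window came from uneven depth was not tested. The window from 300 to 305 kb, past the gene end, was lower in TCKO, at 66.7% in WT and 51.6% in TCKO. Further windows that dipped in WT, as the plot across the Zfp423 locus shows, were those from 105 to 110 kb (58.0% and 86.2%) and from 220 to 225 kb (57.7% and 86.1%). Beyond the first 5 kb, 10 windows of the gene stood under 60% in WT. TCKO was 27.5 to 29.9 points higher in 5 of them and 2.50 to 18.1 points higher in the other 5. The window from 295 to 300 kb stood at 48% and 50.5% and that from 135 to 140 kb at 43.8% and 57.1%, so some dips were present in both libraries.

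**Figure D4:**
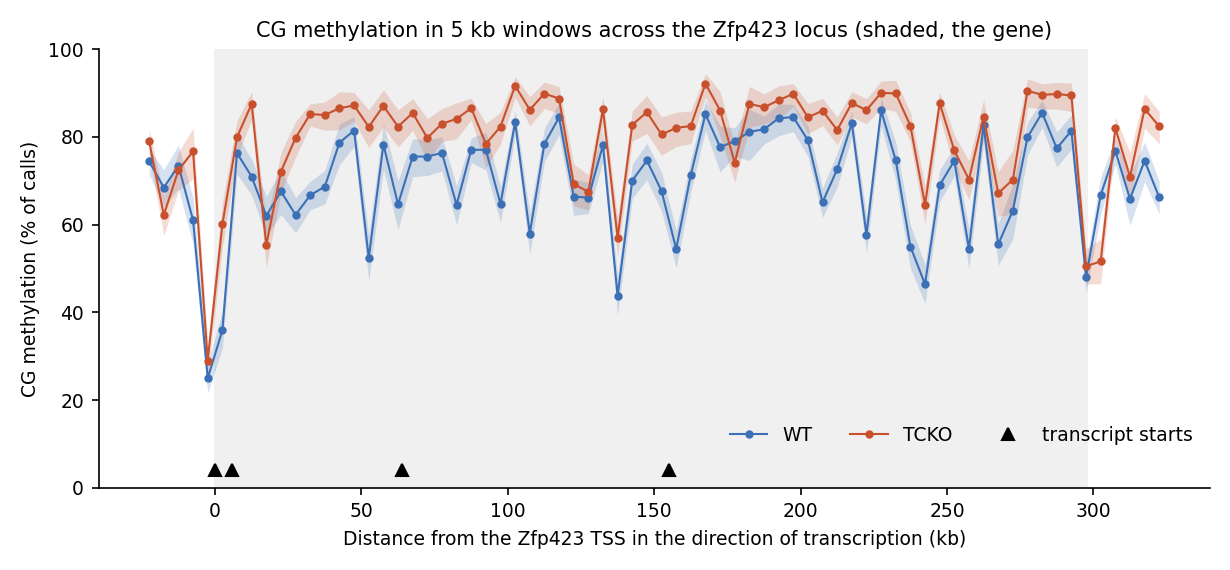
CG methylation (percent of calls, vertical axis) in 5 kb windows across the Zfp423 locus by distance from the TSS in kb; lines join the WT (blue) and TCKO (red) levels, bands are 95% Wilson intervals, triangles mark starts of protein-coding transcripts and the gene is shaded. TCKO lies above WT in 65 of 70 windows, with the widest gap of 29.9 points between 50 and 55 kb.

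Among the end-stage genes, Cd36 had 5 gaining bins of 164 testable. The bin 129 kb downstream of its TSS, past the gene end, rose from 17.1% (35 calls) to 87.8% (41 calls), a difference of 70.7 points. A pair of bins in an intron, at 12.1 and 11.7 kb, were deeper in calls: they rose from 17.6% (91 calls) to 79.0% (81 calls) and from 25.7% (105 calls) to 83.8% (74 calls). The called start of Cd36-206, 53.1 kb inside the gene, lay away from all 5.

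Adipoq had 3 gaining bins of 84, all downstream of the gene. The bin at 20.8 kb, printed above, rose from 2.63% (38 calls) to 75.0% (20 calls), a difference of 72.4 points. Plin1 had 2 of 59, both about 15 kb upstream in Wdr93, at 0% of 19 WT calls against 73.9% of 23 TCKO calls and at 26.7% (105 calls) against 79.7% (128 calls). Lpl had 5 of 84: beside the pair near its start, they lay 22.6 kb upstream and 43.4 and 46.6 kb downstream, with differences of 42.8 to 58.9 points. Lep had 2 of 71, a bin 23.5 kb upstream that rose from 16.1% to 62.5% and a bin over the last exon that rose from 31.0% to 85.7%. Fabp4 had 1 of 82, 5.12 kb upstream, which rose from 36.8% (57 calls) to 79.3% (92 calls). With the bin borders moved by 100 bp, the counts were 2 of 82 at Lpl, 1 of 80 at Adipoq, 1 of 62 at Plin1, 0 of 80 at Fabp4, 2 of 66 at Lep and 4 of 149 at Cd36. Fabp4 thus reached its 10.3 points over the body with no gaining bin inside the gene.

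The threshold of 40 points fell inside a continuous range. The bins just inside it were at 40.1 points (Adipoq, 34.8 kb) and 40.3 points (Zfp423, 164 kb), and those just outside were both at 39.4 points (Zfp423, 142 and 30.9 kb). A further 42 bins passed the adjusted p with fewer than 40 points more in TCKO, and 0 bins reached 40 points without passing it.

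A bin can gain 40 points only from a WT level of 60% or less, and 217 of the 1044 bins (20.8%) were that low in WT, beside 21.5% of all testable bins. Of those 217, 21.2% gained (interval 16.3% to 27.1%), beside 13.3% of all such bins, and without Zfp423 15.4% did (10.7% to 21.8%). From a WT level under 20%, 8 of 16 bins in the regulator loci and 8 of 17 in the end-stage loci gained (50% and 47.1%), beside 36.4% of all such bins. From 20% to under 40% it was 13 of 28 and 8 of 28 (46.4% and 28.6%), beside 27.0%, and all 13 regulator bins were in the Zfp423 locus. From 40% to under 60% it was 7 of 51 and 2 of 72, beside 4.25%. The gaining bins had a median level of 26.2% in WT and 80.7% in TCKO, beside 26.3% and 81.3% for all gaining bins of the genome.

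**Figure D5:**
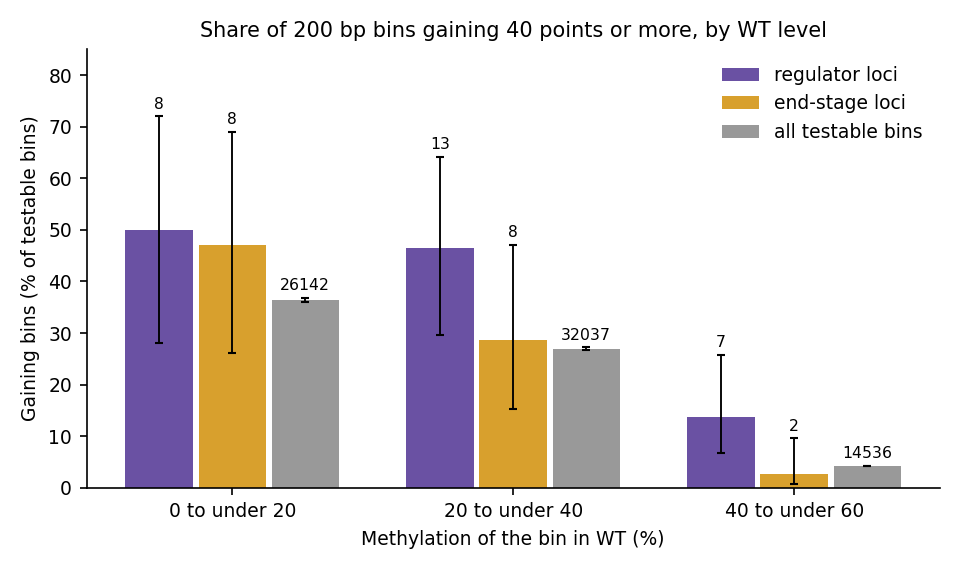
Share of testable 200 bp bins that gained 40 points or more (percent, vertical axis) by the WT level of the bin (horizontal axis) in the regulator loci, the end-stage loci and all testable bins; bars carry 95% Wilson intervals and the number of gaining bins. The shares fall with the WT level in all 3 sets, from 50% to 13.7% in the regulator loci and from 36.4% to 4.25% over all testable bins.

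The gaining bins of the loci held few repeats, and some carried the letters of sites that factors of mesenchymal cells read. In 4 of the 46 bins (8.70%), 50% or more of the bases were masked as repeats, beside 24.6% of all testable bins and 5.09% of all gaining bins. TGANTCA, the AP-1 site, was in 10 of 46 bins (21.7%, interval 12.3% to 35.6%) on either strand, beside 5.80% of all testable bins and 13.0% of all gaining bins. AACCACA, the site of Runt factors such as RUNX2, was in 5 (10.9%, interval 4.73% to 23.0%), beside 5.0% and 9.0%. CATTCC, the TEAD site, was in 7 (15.2%, interval 7.57% to 28.2%), beside 10.9% and 15.4%.

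Letters that the adipocyte regulators themselves read were searched in the same way. TTGCNNAA, the C/EBP site, was in 4 of 46 (8.70%, interval 3.43% to 20.3%), beside 9.61% of all testable bins and 11.2% of all gaining bins. AGGTCA, a nuclear receptor element that PPARγ can read, was in 3 (6.52%, interval 2.24% to 17.5%), beside 10.1% and 8.48%. TTGGCA, part of the NF1 site, was in 4 (8.70%), beside 9.25% and 17%, and CANNTG, the E-box, was in 31 (67.4%), beside 64.4% and 65.0%. The intervals of the Runt, TEAD, C/EBP and AGGTCA shares hold both of the shares set beside them. That of AP-1 holds only the 13.0% of all gaining bins. These intervals take the 46 bins as independent, which neighbouring bins need not be. Both strands were searched, matches of different motifs could overlap, and a match to these letters does not show a site in use.

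Wider lists set the 10 genes beside further genes of adipogenesis and of fat cells. Of 25 further regulators of adipogenesis, inhibitors such as Dlk1 among them, 7 were called at the TSS, beside the 16.4% of all genes. Their median difference was 1.85 points. Over the body 6 were called, beside 14.8%, with a median of 7.49 points. Ppargc1a, which encodes a coactivator of PPARγ and of mitochondrial genes, had the highest TSS difference, from 21.1% (289 calls) to 79.7% (217 calls), or 58.6 points. Rxra, the partner receptor of PPARγ, followed with 19.6% and 39.3%, and Stat5a with 36.3% and 52.2%. The lowest were Dlk1, an inhibitor of adipogenesis, at 21.4% and 13.2%, Klf15 at 9.74% and 4.12%, and Nr1h3 at 14.1% and 12.5%, none of which passed the adjusted p.

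Of 35 further end-stage genes, 9 were called at the TSS, beside 16.4% of all genes, with a median difference of 1.82 points, and 8 over the body, beside 14.8%, with a median of 6.54 points. The highest TSS differences were those of Agpat2, a lipid synthesis gene, at 22.9% and 42.2%, Rbp4, a secreted carrier of retinol, at 45.3% and 64.4%, and Adig at 59.7% and 78.0%. The lowest were Mgll, which encodes monoglyceride lipase, at 45.4% and 33.2%, Dgat1, a triglyceride synthesis gene, at 25.4% and 14.2%, and Slc2a4, the gene of the insulin-regulated glucose transporter, at 10% and 2.40%. All 3 of these passed the adjusted p in the direction of less methylation in TCKO, Mgll and Dgat1 by more than 10 points, as did 1.64% of all genes. The TSS medians of both wider lists lay below the 2.98 points of all genes, as did those of the 10 members. The called shares at the TSS lay above the 16.4% of all genes, at 28% of the further regulators and 25.7% of the further end-stage genes.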

How the data were processed

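The deposited tables held, for each CG cytosine on each strand, counts of methylated and total calls, which the authors made per the labels and methods by aligning reads to GRCm38 with BSMAP 2.74 and its methratio script, using uniquely mapped reads; CASAVA is also named in the submitters' processing notes. Removal of duplicate reads is not given in the sources used here, and calls on the same read are not independent. Calls were placed on the reference CG cytosines, on which 100% of the called nuclear positions lay.

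Levels were pooled methylated over total calls, with 95% Wilson intervals, and Newcombe intervals for differences. TSS windows were 2 kb centred on the gene's 5′ end, and bodies ran to its 3′ end. The 2-sided Fisher's exact test was adjusted over all protein-coding genes with at least 20 calls in each library, or over all testable 200 bp bins on a grid from base 1. For a level of 0, the limit given is 3 calls of the total. CG classes were taken in 500 bp windows from 1 kb upstream to 500 bp downstream of the TSS: high with a ratio of observed to expected CG above 0.75 at a GC content above 55%, low with no window at 0.48 or more. Sequences were read from RefSeq's GRCm38 assembly. The stretch before 1 of the starts is not reported here. All 10 members were described, with the gaining bin nearest the TSS, the one with the largest difference and runs in each locus, and in each wider list the 3 largest and 3 smallest TSS differences. Windows named from the profiles and other bins were picked after their values were seen. The members, the wider lists and the marker lists were chosen with earlier results of these data known. Calculations used numba 0.67.0, scipy 1.17.1 and numpy 2.4.6 under Python 3.11.15, plots used matplotlib 3.10.9, and the test code was tested on simulated data. Expression and chromatin data of the study were not analysed here.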

Additional observations from a re-analysis of the deposited data

How the results depend on the processing

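The number of members called at the TSS was 0, and became 1 with 2 kb on each side (Lpl), with 2 kb upstream (Lpl) and on plus strand cytosines (Pparg, 10.6 points, adjusted p = 0.0479 by Fisher's exact test). With 2 kb on each side, Cebpa (6.15 points), Cebpb (7.18), Zfp423 (5.71), Fabp4 (9.93) and Cd36 (7.20) also passed the adjusted p but not the 10 points. For the altered TSS and body settings, the share of all genes called was not computed, so these counts have no background beside them. The median TSS difference of the regulators, 0.854 points, became 5.93 with 2 kb on each side, -0.336 on the minus strand and -0.158 as a mean of levels, and that of the end-stage genes, 2.40 points, became 7.04 with 2 kb on each side, 9.37 with 2 kb upstream, 0.655 with 500 bp and -0.197 as a mean of levels. Signs of TSS differences, none of which was called before, turned as a mean of levels at Cebpb (-0.315), Fabp4 (-2.93) and Lep (-4.0); with 500 bp on each side at Cebpb (-0.189), Fabp4 (-0.0235), Lep (-3.65), Plin1 (1.33) and Lpl (-7.19); with 2 kb on each side at Cebpa (6.15) and Plin1 (4.0); with 2 kb upstream at Pparg (-13.1, adjusted p = 0.0190 by Fisher's exact test), Cebpa (7.64) and Plin1 (10.2); with at least 4 calls per cytosine at Plin1 (7.09) and Lpl (-3.60); on the plus strand at Cd36 (-0.0585); and on the minus strand at Pparg (-2.84), Fabp4 (-4.30), Adipoq (-2.78), Plin1 (3.05) and Lpl (-1.17). At least 4 calls per cytosine left too few calls to test the TSS of Cebpa, Cebpb and Zfp423. Over the body, Cebpa turned to -8.40 from 1 kb downstream and to -11.0 on the plus strand, and Plin1 to -0.310 on the plus strand; the regulators' median of 6.25 became 14.0 with at least 4 calls per cytosine and 9.56 on the minus strand. Zfp423 and Fabp4 were called over the body in each of the 4 alternatives that gave a test, with 1 more member each time: Cebpb from 1 kb downstream (11.6) and with at least 4 calls per cytosine (17), Lep on the plus strand (10.5) and Cebpa on the minus strand (26.7). As a mean of levels, the body difference became 1.64 at Cebpb, 4.04 at Fabp4, 6.69 at Pparg, 8.64 at Cd36 and 10.6 at Lpl. Gaining bins numbered 46, and 83 at a mean of at least 1 call, 2 at a mean of at least 10 calls, 22 at 50 points and 25 without the Zfp423 locus, an alternative chosen after seeing the data. The regulators' share of 5.60% became 0% at 10 calls, 8.2% at 30 points, 2.80% at 50 points and 2.70% without Zfp423, and the end-stage share of 3.31% became 1.33% at 10 calls, 1.47% at 50 points and 1.93% with the shifted grid. Over the 10 loci, 4.41% became 3.43% at 1 call, 0.766% at 10 calls, 6.03% at 30 points and 2.11% at 50 points. The background moved too: over all testable bins, 2.87% became 2.58%, 1.91%, 4.62% and 1.55% at these settings. Fewer bins were tested at 10 calls (261) than in the main count (1044); other causes were not tested. No paired analysis was possible because each genotype had 1 library, and no replicate could be left out.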
